A study of Mus musculus with 4 samples.

Results

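Chemokines are small secreted proteins that direct the movement of leukocytes and other cells. They fall into CC and CXC families by the spacing of their first cysteines, with Cx3cl1 and Xcl1 outside both. They bind receptors of the Ccr, Cxcr, Cx3cr1 and Xcr1 kind, which couple to inhibitory G proteins, and the atypical Ackr receptors, which bind and clear chemokines without that coupling. In the arterial wall, chemokines such as Ccl2 and Cx3cl1 are known for the recruitment of monocytes, and Cxcl12 for the retention and homing of progenitor cells. The genes described here were all rows of the deposited table with a chemokine or chemokine receptor symbol. The rule used the names and no measured value. It found 66 of the 39179 rows, which carry 62 symbols: 44 ligand rows and 22 receptor rows.

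The RNA was described as that of primary aortic smooth muscle cells of mice, and the library titles name only the aorta. Of 4 libraries, 2 came from mice of the genotype Yap/Taz-KO (labelled Sm-Yap/Taz-KO, knockout below) and 2 from wild-type (WT) mice. YAP and TAZ are transcriptional co-activators held in check by the Hippo pathway. Mice of both genotypes had received tamoxifen 18 days earlier. The labels give no age, name no promoter that drives the deletion, and do not say whether the 2 libraries of a genotype came from different or pooled animals. P-values therefore measure only the spread between these libraries, which may be technical.

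Values are normalized read counts, rounded to whole numbers by the authors. They summed to between 13279332 and 14519178 per library, and reads on genes were estimated at 12300000 and 11800000 for the knockout libraries and 15600000 and 16800000 for wild-type ones. Yap1 was at 947 and 962 in knockout libraries versus 1966 and 1877 in wild type (log2 fold change -1.01, limma adjusted p = 0.0080), and Wwtr1, the gene of TAZ, at 2848 and 2466 versus 3423 and 4016 (adjusted p = 0.055 by limma). Smooth muscle markers were abundant in all 4 libraries. Of 14 such markers, 10 were lower and 1 higher in the knockout. Markers of other cell types were present in wild type too. There, fibroblast markers summed to 90490 and 191298, adipocyte markers to 11550 and 17333 and macrophage markers to 5487 and 7703. Much of the last 2 sums came from a single gene each, Plin4 at 7904 and 5710 and Mertk at 3889 and 3274. Unlike most of their lists, these 2 genes were lower in the knockout. The smooth muscle markers summed to 520812 and 489995 in the same libraries. The RNA therefore cannot be taken as that of smooth muscle cells alone. Markers of several other cell types were higher in the knockout and are given beside the results. In RNA from many cells, fewer cells of a type and less RNA per cell cannot be told apart, and the same holds for more.

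Of the 66 rows, 55 were above 0 in at least 1 library, and 37 had an average of 10 or more and were tested. The other 18 lay below that filter, and 11 were listed at 0 in every library. Of the 37 tested rows, 20 were higher in the knockout and none lower, with 17 not past the threshold of a limma adjusted p of 0.05 (Benjamini-Hochberg over 15058 genes). The background, here and for the lists of other genes in this report, was 9.58% of all tested genes higher and 6.7% lower. At an unadjusted p under 0.05, 25 of the 37 were higher and none lower, beside 17.9% and 14.6% of all tested genes. The median log2 fold change of the 37 was 2.57, beside -0.02 over all tested genes. The filter on the mean over all libraries bears on this count: 14 of the 37 had a wild-type mean under 10 and passed through the knockout, of which 9 were called higher. Of the 23 with a wild-type mean of at least 10, 11 were called higher, with a median of 1.60. At an unadjusted limma p under 0.05, 13 of these 23 and 12 of those 14 were higher. In 27 of the 37 rows, both knockout values lay above both wild-type values, beside 30.7% of all tested genes. They lay below both in 2, beside 32.1% of all tested genes. The 27 include rows that passed the filter through the knockout. These calls depended on settings of the test: limma called 0 of the members without the filter on low counts or without the intensity trend (27 and 25 higher at an unadjusted p under 0.05, beside 11.8% and 15.9% of all genes in those fits), 0 without knockout 1, knockout 2 or wild type 1, and 9 without wild type 2.

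**Figure D1:**
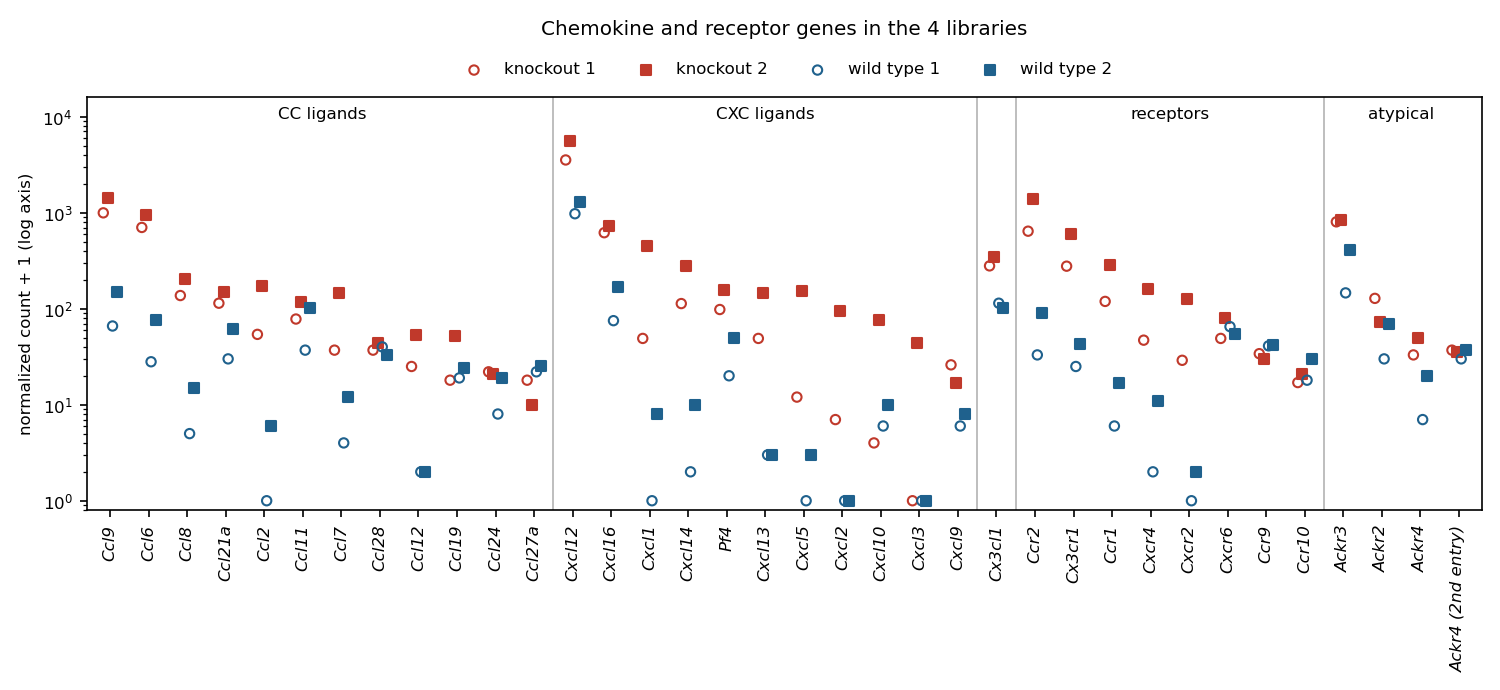
Normalized counts plus 1 on a log axis for 36 of the 37 tested chemokine and receptor rows, 1 point per library, ordered by role and by the knockout mean. Both knockout points lie above both wild-type points in 26 of the rows drawn, and Cxcl12 has the highest count in every library.

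The windows around the starts of Cxcl1, Cxcl2 and Cxcl3 are shown first, because these 3 genes of one cluster on chromosome 5 encode ligands of the neutrophil receptor Cxcr2, and each was highest in knockout 2. In RefSeq's promoters on GRCm38.p6 (250 bases before to 50 after the start, both strands searched), each of the 3 held the 11 letters GGGAATTTCCC, in capitals below, which contain the NF-κB motif on both strands, overlapping by all but 1 base. These 11 letters stood in 14 of 32851 promoters (0.0426%), and in no other member's promoter among those in the table. All 3 stretches are read on the plus strand, at chr5:90891155-90891204, chr5:90903783-90903832 and chr5:90786009-90786058. They were chosen after the values were seen. The 11 letters were read from these same 3 promoters, so their share among all promoters is a description and not a test. Of the 3 genes only Cxcl1 passed, and Cxcl2 and Cxcl3 had limma adjusted p of 0.072 and 0.395. The promoter of Ppbp, another Cxcr2 ligand of that cluster, held no NF-κB match.
Cxcl1: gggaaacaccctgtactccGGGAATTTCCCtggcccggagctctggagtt
Cxcl2: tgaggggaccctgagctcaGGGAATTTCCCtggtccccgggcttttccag
Cxcl3: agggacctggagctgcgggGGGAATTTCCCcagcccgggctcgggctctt

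The match began 70, 96 and 72 bases before the start of Cxcl1, Cxcl2 and Cxcl3. A match is a description of letters, and binding was not measured here. The NF-κB motif in any form stood in 9 of 43 promoters of 39 members above 0 (20.9%) and in 4.51% of all promoters. Among the 16 promoters of members called higher it stood in 2 (12.5%), those of Ccl9 and Cxcl1. The TEAD motif GGAATG, bound by the partners of YAP and TAZ, stood in 6 of the 43 (14.0%), in 2 of the 16 (12.5%) and in 14.7% of all promoters. In the same order, the AP-1 motif TGANTCA stood in 18.6%, 6.25% and 7.81%. The PU.1 motif GAGGAAG stood in 16.3%, 18.8% and 13.6%, and the interferon response letters GAAANNGAA in 14.0%, 12.5% and 8.56%. No motif's share was tested. Of 54 symbols above 0, 39 had a promoter in the table.

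The promoters of the 3 members with the smallest p are given next. Ccl9 and Ccl6 are neighbours in the same orientation, so that their proximal windows can be read against each other. Capitals mark matches to any of the 5 motifs named above. Ccl9 had an AP-1 match 53 bases and an NF-κB match 35 bases before its start, and Ccl6 and Cxcl12 had none. The windows lie at chr11:83578587-83578886 and chr11:83593038-83593337 on the minus strand and at chr6:117168285-117168584 on the plus strand.
Ccl9: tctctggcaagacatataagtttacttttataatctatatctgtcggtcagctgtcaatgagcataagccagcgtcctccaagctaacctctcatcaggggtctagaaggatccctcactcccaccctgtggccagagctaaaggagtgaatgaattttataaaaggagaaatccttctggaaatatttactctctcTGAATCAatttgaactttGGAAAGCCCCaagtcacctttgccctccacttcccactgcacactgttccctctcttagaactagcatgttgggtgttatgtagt
Ccl6: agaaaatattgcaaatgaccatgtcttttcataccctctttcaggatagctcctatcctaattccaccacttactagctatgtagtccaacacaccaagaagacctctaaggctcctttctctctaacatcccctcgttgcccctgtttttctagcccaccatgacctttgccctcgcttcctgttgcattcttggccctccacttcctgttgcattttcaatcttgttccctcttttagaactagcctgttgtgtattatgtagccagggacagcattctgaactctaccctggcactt
Cxcl12: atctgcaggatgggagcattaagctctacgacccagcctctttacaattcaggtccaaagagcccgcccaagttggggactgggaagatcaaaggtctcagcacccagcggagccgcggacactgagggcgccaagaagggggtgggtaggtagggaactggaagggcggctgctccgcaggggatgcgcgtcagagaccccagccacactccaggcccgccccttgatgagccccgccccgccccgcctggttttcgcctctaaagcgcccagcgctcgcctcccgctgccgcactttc

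The windows of Ccl6 and Ccl9 aligned over 67 bases with 59 identical (88.1%) and 7 gap bases, starting 59 bases before the start of Ccl6. The best local alignment of Ccl9 with Cxcl12 covered 33 bases with 25 identical.

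Monocyte-attracting CC ligands rose in the knockout. Ccl9 and Ccl6, which act through Ccr1 on myeloid cells, had the smallest p of all members. Ccl9 was at 994 and 1417 normalized counts in knockout libraries versus 65 and 149 in wild type. Its means were 1206 ± 299 (SD, n = 2) and 107 ± 59.4, an 11.3-fold difference (3.58 ± 0.40 SE on the log2 scale by limma, adjusted p = 0.0090). Ccl6 was at 700 and 937 versus 27 and 75, a 16.0-fold difference (4.14 ± 0.47 SE on the log2 scale by limma, adjusted p = 0.0090). Without wild-type replicate 1 the log2 fold changes of Ccl9 and Ccl6 were 2.99 and 3.42, and without wild-type replicate 2 they were 4.17 and 4.86. For both genes the lower knockout library stood several-fold above the higher wild-type library. In the same libraries 17 of 20 macrophage markers were higher and 1 lower (median log2 fold change 2.81). Their counts summed to 18312 and 22732 in knockout libraries versus 5487 and 7703 in wild type. These sums include the lower marker Mertk, at 1794 and 1607 versus 3889 and 3274. The markers of leukocytes as a whole were higher in 5 of 6 (median 3.43), summing to 2869 and 5401 versus 218 and 654. Their part in the rise of the ligands was not tested.

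Ccl2, Ccl7 and Ccl12, ligands of Ccr2, the receptor that brings monocytes out of bone marrow, all rose. So did Ccl8 of the same cluster, which is grouped with them here. Ccl8 was at 136 and 205 normalized counts against 4 and 14 (4.28 ± 0.60 SE on the log2 scale by limma, adjusted p = 0.012). Ccl2, the best known monocyte attractant, was at 53 and 173 versus 0 and 5, and its neighbour Ccl7 at 36 and 143 versus 3 and 11. Ccl12 was at 24 and 52 versus 1 and 1, a ratio of summed counts of 38.0 with an exact 95% interval from 10.2 to 319 that covers counting error only. Their log2 fold changes were 5.31 for Ccl2, 3.40 for Ccl7 and 4.19 for Ccl12, with limma adjusted p of 0.025, 0.047 and 0.020. With knockout replicate 1, knockout replicate 2, wild-type replicate 1 or wild-type replicate 2 left out, that of Ccl2 was 6.15, 4.46, 4.01 or 6.60 and that of Ccl7 was 4.38, 2.42, 2.60 or 4.19. For Ccl8 it was 3.49 with wild-type replicate 1 left out and 5.07 with wild-type replicate 2 left out. Summed, the 4 ligands reached 249 and 573 versus 8 and 31. Knockout 2 was 2.30-fold above knockout 1 in this sum, and knockout 1, the lower, was 8.03-fold above wild type 2, the higher of the wild type.

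None of the remaining CC ligands passed, and many were scarce. Ccl21a, a ligand of the lymphoid homing receptor Ccr7 with near-identical copies, was at 113 and 148 versus 29 and 61 (log2 fold change 1.60) and did not pass (limma adjusted p = 0.0503). With other pseudocounts and scalings that p ran from 0.0385 to 0.0512, and with the replicate number as a block it was 0.0179. Its copies Ccl21b and Ccl21c were listed at 0, and reads that match several copies may have been left out or assigned to 1 of them. Ccl11, the eosinophil attractant eotaxin, was at 77 and 115 versus 36 and 100, so the groups overlapped. Ccl19, Ccl24, Ccl27a and Ccl28 had log2 fold changes from -0.81 to 0.80 and did not pass. Ccl27a had the lowest fold change of the tested members, at 17 and 9 versus 21 and 24. Below the filter, Ccl17 was at 8 and 10 versus 1 and 1, Ccl22 at 0 and 25 versus 0 and 0, and Ccl3, Ccl4 and Ccl5 summed to 3 and 24 versus 3 and 8. The first of the 2 rows named Ccl25 ranged from 8 to 15, and Ccl26 had 1 count in 1 library. Ccl1, Ccl20, Ccl21b, the 3 rows named Ccl21c, the other row named Ccl25 and Ccl27b were at 0 in all 4 libraries.

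Among CXC ligands, Cxcl12 had the highest level per kilobase of exon in every library and rose. This ligand of Cxcr4 and Ackr3 (chromosome 6, 117168535 to 117181367, GRCm38) was at 3535 and 5537 normalized counts in knockout libraries versus 973 and 1283 in wild type. The means of 4536 ± 1416 and 1128 ± 219 (SD, n = 2) differed 4.02-fold (1.98 ± 0.24 SE on the log2 scale by limma, adjusted p = 0.0097). Per kilobase of exon, Cxcl12 stood at 555 in the knockout, ahead of Ccl6 at 456, Ccl9 at 396 and Ccl8 at 334. In the wild type Cxcl12 stood at 138 per kilobase, and these 3 at 28.4, 35.1 and 17.6, below Ccl11 at 62.8 and Ccl21a at 51.7. Its share of the summed ligand level per kilobase was 18.1% and 16.2% in knockout libraries versus 31.2% and 22.2% in wild type. Thus Cxcl12 rose, but made up a smaller part of the ligand level. Without Cxcl12, ligand counts summed to 253 and 442 for each 1000000 counts in the table in knockout libraries versus 35.1 and 62.7 in wild type. Fibroblast markers summed to 300270 and 306294 versus 90490 and 191298 (3 of 14 higher, median 1.22), and endothelial markers to 20479 and 18791 versus 7331 and 11512 (7 of 14 higher). Their part in the rise of Cxcl12 was not tested.

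Cxcl16 and Cx3cl1, the chemokines made with a membrane stalk, rose with little spread between the knockout libraries. Cxcl16, which is also a scavenger receptor for oxidized lipoprotein, was at 617 and 718 versus 74 and 168 (2.57 ± 0.38 SE on the log2 scale by limma, adjusted p = 0.013). Its exons share 18.3% of their length with Zmynd15 on the opposite strand, so some reads may belong to that gene. Cx3cl1, the adhesive ligand fractalkine (chromosome 8, 94772009 to 94782427), was at 278 and 344 versus 113 and 101 (1.52 ± 0.20 SE on the log2 scale by limma, adjusted p = 0.011). It was 2.91-fold higher, the smallest difference among the 13 ligands that rose. Cxcl13, the B cell attractant, was at 48 and 144 versus 2 and 2 (log2 fold change 4.81, limma adjusted p = 0.0125). Cxcl14, a chemokine of epithelia and stroma, was at 112 and 280 versus 1 and 9 (log2 fold change 5.32, limma adjusted p = 0.016), and Pf4, platelet factor 4, at 97 and 154 versus 19 and 48 (1.98, limma adjusted p = 0.0488). In the fit of genes with a mean of at least 50, Pf4 missed the threshold (0.0505 by limma), and its log2 fold change was 1.33 with wild-type replicate 1 left out and 2.62 with wild-type replicate 2 left out. Leaving out those same libraries gave 1.98 and 3.15 for Cxcl16 and 4.16 and 6.48 for Cxcl14. Leaving out knockout replicate 1 or 2 gave 5.59 or 4.03 for Cxcl13 and 5.97 or 4.66 for Cxcl14. Platelet markers other than the members were scarce, with summed counts of 97 and 130 versus 118 and 162 and 0 of 3 tested higher, and Gp9 was at 0 in 3 of the 4 libraries.

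The ligands of Cxcr2, the chemokines that draw neutrophils, were nearly absent from the wild type and far apart in the knockout. Cxcl1 was at 48 and 448 versus 0 and 7 normalized counts (5.71 ± 1.35 SE on the log2 scale by limma, adjusted p = 0.040). Its log2 fold change was 4.11 without knockout replicate 2, 7.31 without knockout replicate 1, 4.21 with wild-type replicate 1 left out and 7.21 with wild-type replicate 2 left out. Cxcl5 was at 11 and 153 versus 0 and 2, and Cxcl2 at 6 and 94 versus 0 and 0. Neither passed, with limma adjusted p of 0.068 and 0.072. The summed counts of Cxcl2 were at least 33.3-fold higher in the knockout taking 3 counts as the floor of the wild-type group, nearly all of them from knockout 2. Cxcl3 was at 0 and 43 versus 0 and 0, so its difference came from knockout 2 alone. With Ppbp, at 10 and 11 versus 3 and 8, the 5 genes summed to 75 and 749 in the knockout, a 9.99-fold gap between the 2 libraries, and to 3 and 17 in the wild type. Of 10 neutrophil markers, 3 were tested and 2 were higher, and the list summed to 96 and 521 versus 8 and 12. The sum rested on few genes: S100a9 was at 15 and 189 versus 0 and 0 and Csf3r at 70 and 265 versus 5 and 6, while S100a8 was at 0 and 48 versus 0 and 0. Retnlg, Ngp, Camp and Ltf had at most 2 counts in any library, and Ly6g and Elane were at 0 in all 4. Their part in the counts of the Cxcr2 ligands was not tested.

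Ligands of Cxcr3, a receptor of activated T cells, were low, and neither of those tested passed. Cxcl9 was at 25 and 16 versus 5 and 7, with no overlap (limma adjusted p = 0.137). Cxcl10 was at 3 and 76 versus 5 and 9, so knockout 1 lay below both wild-type libraries. Cxcl11, at 2 and 4 versus 4 and 16, was below the filter, and an annotated gene on the opposite strand shares 41.7% of its exon length. Of T cell markers, 3 were tested and none passed, with summed counts of 98 and 147 versus 33 and 24. Cxcl15 and Cxcl17 had at most 6 counts in any library, and Xcl1 was at 0.

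**Figure D2:**
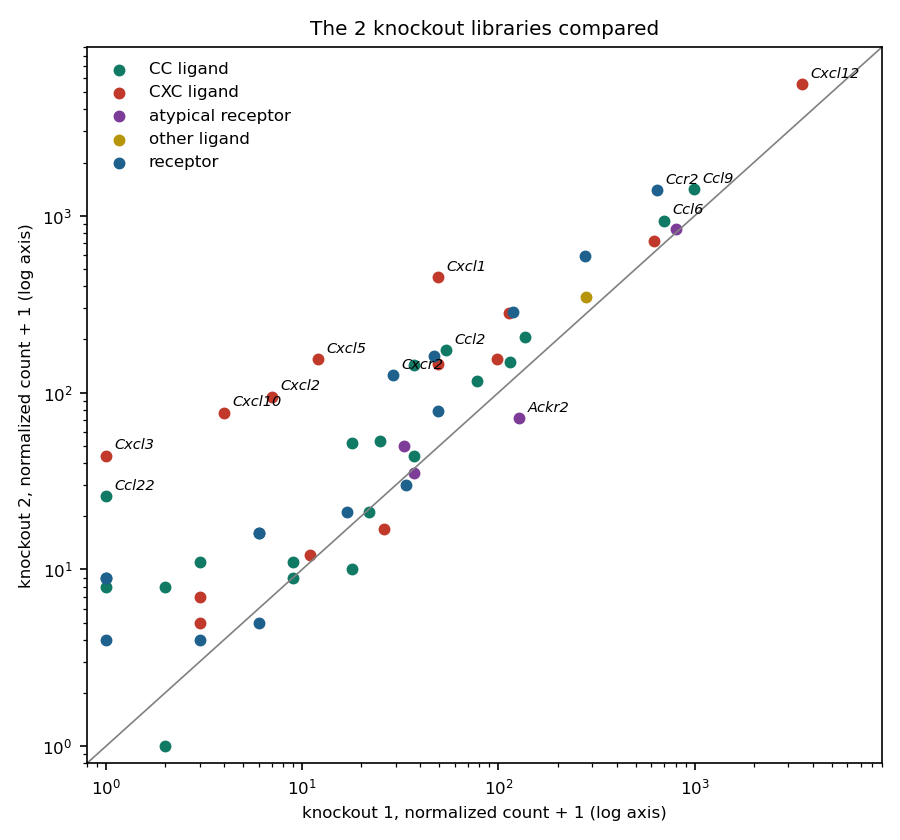
Normalized counts plus 1 in knockout 1 (x axis) and knockout 2 (y axis), both on log axes, for the members drawn that were above 0 in a knockout library, coloured by role. The line marks equal counts. Cxcl1, Cxcl2, Cxcl3, Cxcl5, Cxcl10 and Ccl22 lie far above it, and Cxcl12, Ccl6 and Ccl9 close to it.

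Receptors of monocytes and macrophages rose together. Ccr2, which answers to Ccl2, Ccl7 and Ccl12, was at 640 and 1397 versus 32 and 89 (4.12 ± 0.55 SE on the log2 scale by limma, adjusted p = 0.011). Cx3cr1, the receptor of Cx3cl1, was at 276 and 592 versus 24 and 42 (3.63 ± 0.44 by limma, adjusted p = 0.0099). Ccr1, the receptor of Ccl6 and Ccl9, was at 118 and 283 versus 5 and 16 (4.19 ± 0.65 by limma, adjusted p = 0.015). The 3 receptors summed to 1034 and 2272 in knockout libraries versus 61 and 147 in wild type. Knockout 2 was 2.20-fold above knockout 1 in this sum. The log2 fold changes of Ccr2 and Ccr1 were 3.39 and 3.43 without wild-type replicate 1, and 4.84 and 4.94 without wild-type replicate 2. That of Ccr1 was 4.81 without knockout replicate 1 and 3.56 without knockout replicate 2. These receptors are known from monocytes and macrophages, whose markers were higher in 17 of 20 cases, and the part of those cells was not tested.

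Cxcr2 and Cxcr4 also rose. Cxcr2, the receptor of neutrophils, was at 28 and 124 versus 0 and 1 (5.41 ± 0.94 SE on the log2 scale by limma, adjusted p = 0.019). The ratio of its summed counts was 152 with an exact 95% interval from 26.9 to 6043, for counting error only. Cxcr4, the signalling receptor of Cxcl12, was at 46 and 161 versus 1 and 10 (4.22 ± 0.99 by limma, adjusted p = 0.040). Both receptors were more than 3 times higher in knockout 2 than in knockout 1, and the genotypes did not overlap. Leaving out knockout replicate 1 or 2 gave log2 fold changes of 6.47 or 4.36 for Cxcr2 and 5.11 or 3.32 for Cxcr4. For Cxcr4 the value was 2.99 with wild-type replicate 1 left out and 5.45 with wild-type replicate 2 left out.

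The receptors Cxcr6, Ccr9 and Ccr10 did not pass, and several others were too low to test. Cxcr6, the receptor of Cxcl16 on T cells and natural killer T cells, was at 48 and 78 versus 64 and 54 (0.06 ± 0.35 SE on the log2 scale by limma, adjusted p = 0.93). Ccr9, a gut homing receptor, was at 33 and 29 versus 40 and 41 (-0.38 ± 0.35 by limma, adjusted p = 0.51), with both knockout values below both wild-type values. Ccr10, a skin homing receptor, was at 16 and 20 versus 17 and 29 (-0.30 ± 0.51 by limma, adjusted p = 0.73). Ccr9 shares 18.8% of its exon length with a gene on the opposite strand. Ccr3 and Ccr7 were each at 5 and 15 versus 0 and 1. Ccr4, Ccr6, Cxcr3, Cxcr5 and Xcr1 had at most 14 counts in any library, and Ccr8 and Cxcr1 were at 0 in all 4.

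Of the atypical receptors, which remove chemokines, Ackr3 rose. This second receptor of Cxcl12 (chromosome 1, 90203980 to 90216751) was at 801 and 840 versus 145 and 407 (1.75 ± 0.45 SE on the log2 scale by limma, adjusted p = 0.0495). The call is at the edge of the threshold: with a pseudocount of 0.5 the adjusted p was 0.0507 by limma, and the log2 fold change was 1.01 with wild-type replicate 1 left out and 2.49 with wild-type replicate 2 left out. Per kilobase of exon, Ackr3 was the highest receptor in the knockout, at 245 ahead of Ccr2 at 151, and in the wild type, at 82.4 ahead of Cxcr6 at 30.6. Ackr2, a scavenger of inflammatory CC chemokines, was at 127 and 71 versus 29 and 69 (1.07 ± 0.50 by limma, adjusted p = 0.21), so that the lower knockout value was just above the higher wild-type one. Ackr4, which clears Ccl19 and Ccl21, has 2 rows in the table. The row found in GENCODE M21 (chromosome 9, 104084157 to 104126933) was at 32 and 49 versus 6 and 19 (1.78 ± 0.65 SE on the log2 scale by limma, adjusted p = 0.12). The other, not found there by its identifier, was at 36 and 34 versus 29 and 36 (0.11 ± 0.37 by limma, adjusted p = 0.87).

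**Figure D3:**
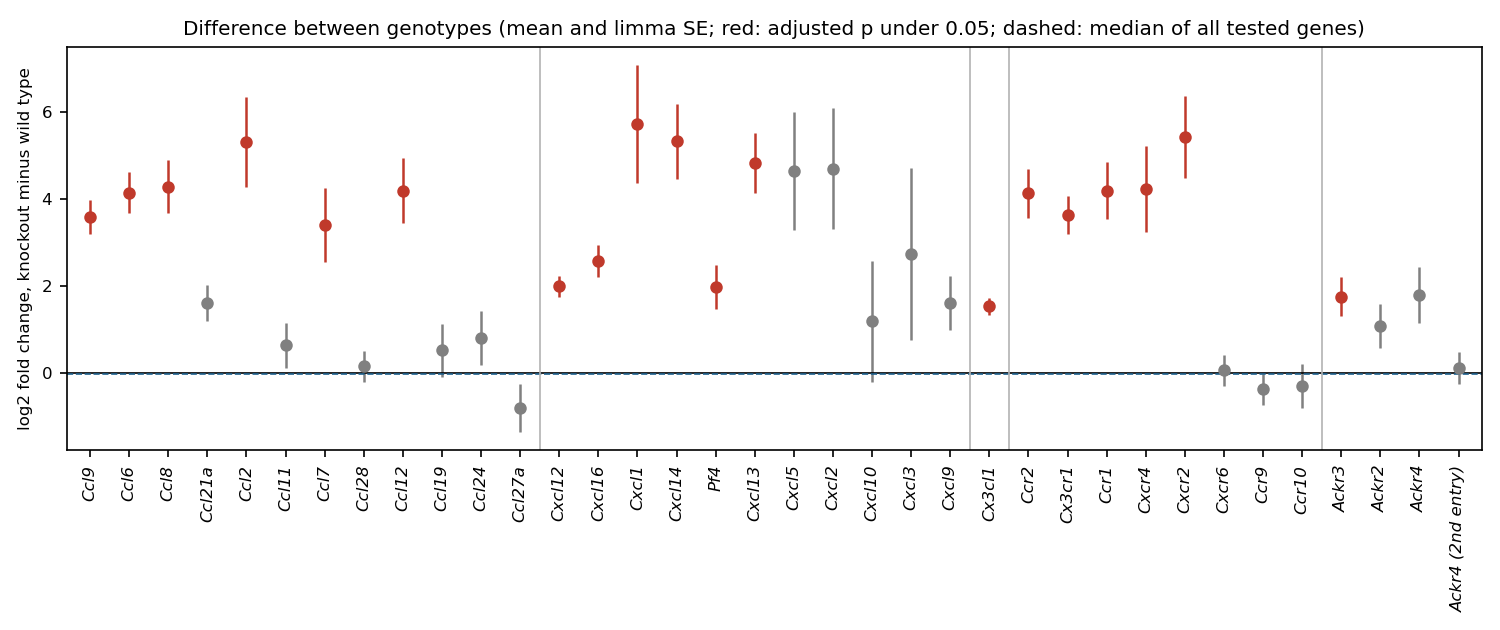
Log2 fold change, knockout minus wild type, of 36 of the 37 tested rows with limma's SE as bars. Points in red passed an adjusted p of 0.05 (19 of the rows drawn, all above 0), and the dashed line is the median of all tested genes at -0.02.

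Set side by side, ligands and their receptors differed in which of them rose. For the Cxcl12 group, the ligand and both receptors Cxcr4 and Ackr3 rose. Cx3cl1 rose 2.91-fold and Cx3cr1 13.2-fold. Ccl2 and Ccr2 rose, and so did Ccl6 and Ccr1, and Cxcl1 and Cxcr2. Cxcl16 rose 5.52-fold while Cxcr6 was 1.07-fold higher and did not pass. Cxcl13 rose, but its receptor Cxcr5 stood at 5 and 4 versus 14 and 4 and lay under the filter. These counts hold no information on which cells made ligand or receptor.

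**Figure D4:**
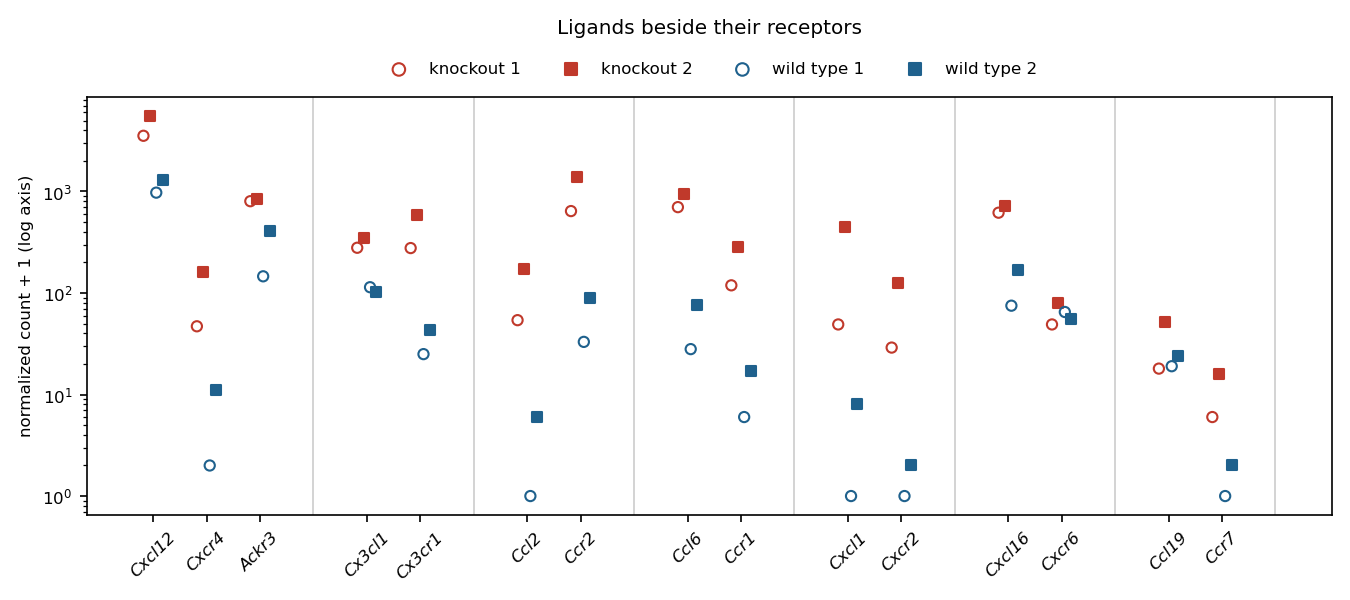
Normalized counts plus 1 on a log axis for ligands and their receptors, 1 point per library, with vertical lines between the groups of ligand and receptor. The wild-type and knockout points of Cxcr6 overlap, and those of Cxcl16 beside it do not.

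Chemokine genes lie in clusters, and the members of a cluster did not all move alike. On chromosome 11, from 82035571 to 82305690 (GRCm38), 6 genes lie in the order Ccl2, Ccl7, Ccl11, Ccl12, Ccl8 and Ccl1. In this group 4 rose, Ccl11 between Ccl7 and Ccl12 did not pass, and Ccl1 was at 0. From 83525778 to 83664683 on the same chromosome, Ccl9 and Ccl6 rose, while their neighbours Ccl5, Ccl3 and Ccl4 had at most 10 counts in any library. On chromosome 5, 7 genes lie between 90759360 and 90905938, of which Pf4 and Cxcl1 rose and Cxcl5, Cxcl3 and Cxcl2 followed knockout 2 without passing. The 3 ligands of Cxcr3 lie apart on that chromosome, from 92321347 to 92365485. There Cxcl9 and Cxcl10 did not pass, and Cxcl11 was not tested. Cx3cl1 on chromosome 8 rose between Ccl22 and Ccl17, both below the filter. On chromosome 9, from 123678439 to 124113557, Ccr1 and Ccr2 rose, with Ccr3 between them at 5 and 15 versus 0 and 1, whereas Ccr9 and Cxcr6 at the other end did not pass.

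The replicate libraries of a genotype differed in level for most members. Knockout 2 was above knockout 1 in 31 of the 37 tested rows and wild type 2 above wild type 1 in 30, with medians of 0.66 and 1.05 on the log2 scale. Over all tested genes the corresponding shares were 47.5% and 52.5%. The summed markers of leukocytes, macrophages, neutrophils, dendritic cells, platelets and fibroblasts were also higher in knockout 2 and in wild type 2. Those of endothelial cells, adipocytes, mast cells and B cells were higher in wild type 2 but lower in knockout 2. T cell markers went the opposite way, and smooth muscle markers were lower in both. The fibroblast sum was higher in knockout 2 through Col1a1, at 128268 in knockout 1 and 150818 in knockout 2. Most other fibroblast markers were lower in knockout 2, such as Dcn at 22269 in knockout 1 and 14026 in knockout 2. The part of any cell type in these differences was not tested. Between the genotypes, adipocyte markers were higher in the knockout in 8 of 12 and lower in 1. Dendritic cell markers were higher in 3 of 8, and the 1 tested B cell marker did not pass. The summed ligand counts were 508 and 859 for each 1000000 counts in the table in knockout libraries versus 103 and 151 in wild type, and those of the receptors 173 and 314 versus 30.3 and 58.5. Even so, the lower knockout library was above the higher wild-type library in both sums.

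**Figure D5:**
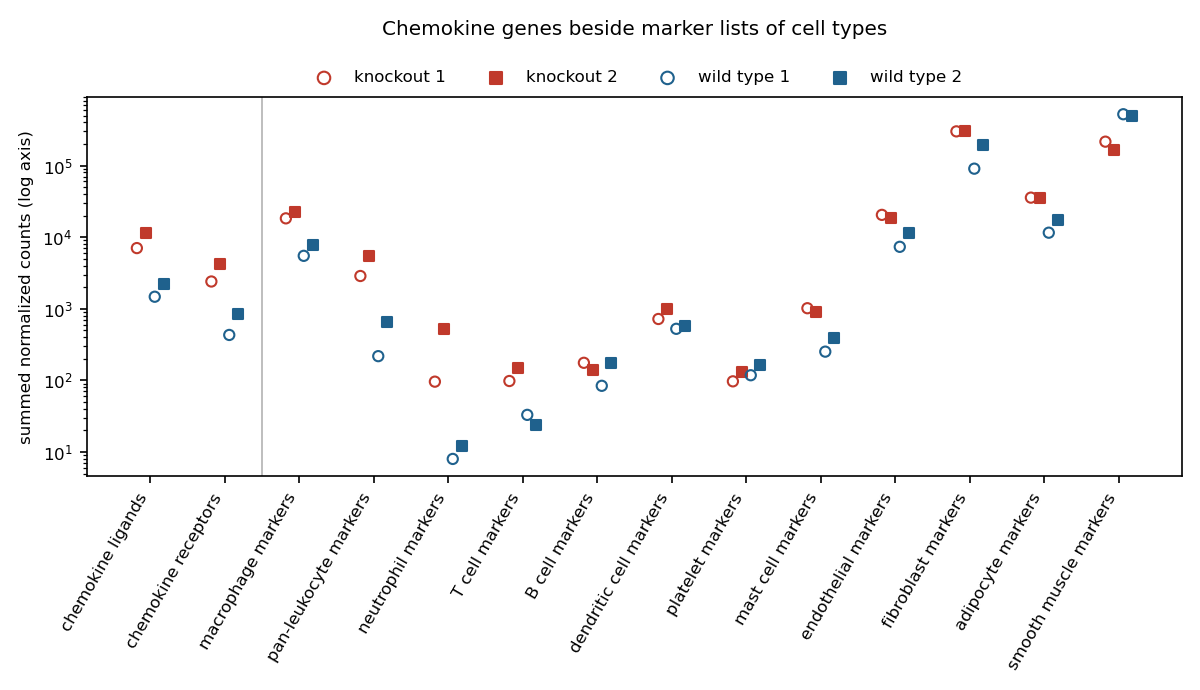
Summed normalized counts on a log axis, 1 point per library, for the chemokine ligands and receptors and for each list of cell type markers. Sums of macrophage, leukocyte, neutrophil, T cell, dendritic cell and mast cell markers were higher in both knockout libraries than in both wild-type libraries. The same held for endothelial, fibroblast and adipocyte markers. B cell and platelet sums overlapped, and smooth muscle sums were lower in the knockout.

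Genes that act with chemokines were read from 4 lists. Beside each count stands the background of 9.58% of all tested genes higher and 6.7% lower, with a median log2 fold change of -0.02. Of 34 tested genes of signalling below the receptors, 17 were higher and none lower in the knockout (median log2 fold change 1.00). Those with the smallest p were Elmo1, a partner of the Rac activator Dock proteins, at 1120 and 1212 versus 529 and 589, Stat3 at 3010 and 3249 versus 1716 and 1831, the Src family kinase gene Lyn at 343 and 670 versus 58 and 99, and Vav1, an exchange factor of blood cells, at 144 and 360 versus 22 and 29. Several genes of this list, such as Vav1, Rac2 and Was, are known from leukocytes, and the leukocyte markers were higher in the same libraries. The part of leukocytes in the rise of this list was not tested. Of 16 genes that process or bind chemokines, 5 rose and 2 fell (median 0.67). The mast cell chymase gene Cma1 was at 144 and 167 versus 24 and 28, the hyaluronan-binding Tnfaip6, whose product also binds chemokines, at 341 and 854 versus 28 and 60, and the macrophage protease gene Mmp12 at 42 and 45 versus 1 and 2. Ext1, which builds the heparan sulfate chains on which chemokines rest, fell, at 3113 and 2832 versus 5274 and 5139. Mast cell markers were higher in 3 of 5 tested genes (median 1.94), and their part in the value of Cma1 was not tested.

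Of 16 tested genes for other chemoattractants and their receptors, 5 rose and 1 fell (median 0.89). Complement C3 was at 26713 and 23171 versus 3146 and 7351. C3ar1, the receptor of a C3 fragment, rose too, at 486 and 776 versus 49 and 103, as did C5ar1, which binds a fragment of complement C5, at 78 and 197 versus 5 and 13. Rarres2, which encodes the attractant chemerin, fell, at 857 and 638 versus 1866 and 1766. Of 23 tested inducers of chemokine expression, 10 rose and none fell (median 0.75). The smallest p belonged to Nfkbie, which encodes an inhibitor of NF-κB (202 and 306 versus 52 and 71), the alarmin Il33 (1150 and 1895 versus 132 and 305), Irf7 (174 and 299 versus 56 and 59) and the TNF receptor Tnfrsf1a (1651 and 1754 versus 921 and 1076). Il17a, Ifng, Ifnb1 and Lta were at 0 in all 4 libraries. Over the 4 lists, 37 genes were higher in the knockout, and limma called 0 of them without the filter on low counts or without the intensity trend.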

How the data were processed

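The series held 4 mouse RNA-seq libraries. Ribosomal RNA was removed and a stranded total RNA kit used, per the labels' protocols. The submitters' processing notes name FastQC, STAR 2.5.2b, featureCounts 1.5.1 (Subread), DESeq2 1.14.1 and mm10/GRCm38, without roles. Not given in the sources used here are the annotation release, strand setting and filters. The authors deposited a score: read counts divided by a size factor and rounded to whole numbers. This was read from the values, which skip 45 and 44 of the whole numbers up to 400 in the knockout columns, and from estimated size factors of 0.887, 0.89, 1.10 and 1.16. Since rounding hides some wild-type read numbers, no count model was used.

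Values were analysed as log2(value + 1) in R 4.3.3 with limma 3.58.1, on all 15058 genes with a mean of at least 10, with genotype as the single term, an intensity trend in eBayes, two-sided p and Benjamini-Hochberg adjustment. Fold changes on this scale understate the change of low genes. The fit was also run on simulated counts that share a common dispersion and hold no shift between replicates. Members with widely differing replicates are not covered by that simulation. With 2 libraries against 2, an exact permutation test cannot go below 0.333, so none was used. GENCODE M21 (GRCm38) gave positions, exon lengths and overlaps for 61 of the 66 rows by identifier, and RefSeq (GRCm38.p6) the promoters. The members, roles, pathway lists, marker lists and motifs were chosen with earlier results of these data known. One tested member is not reported here and enters only the counts and sums. Every other member past the threshold is named with its values, full statistics are given for the 8 members with the smallest p and for each tested receptor with that exception, and up to 4 genes per pathway list are named by p. Protein sequences are not given here. The alternatives were 2 pseudocounts, 2 filters, no trend, 3 scalings, a replicate block and each library left out. Figures were drawn with matplotlib 3.10.9.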

Additional observations from a re-analysis of the deposited data

How the results depend on the processing

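With both genotypes at 2 libraries, the calls depend on the moderation of the variances. With no low-count filter, or with no intensity trend, limma called 0 members, 0 ligands, 0 receptors, 0 genes of the pathway lists and 0 markers higher, with smallest adjusted p among the members of 0.0894 and 0.0675. In those fits 27 and 25 members had an unadjusted p under 0.05, all higher in the knockout, beside 11.8% and 15.9% of all genes higher in those fits. With 1 library left out, 0 to 9 members, 0 to 5 ligands, 0 to 4 receptors, 0 to 11 pathway genes and 0 to 46 markers were called higher. The 9 members called without wild-type replicate 2 were Ccl6, Ccl8, Ccl9, Cxcl14, Cxcl16, Ackr3, Ccr1, Ccr2 and Cx3cr1, and without any other library none was called. Such fits have 1 residual degree of freedom and assume that the lone library varies like the others.

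With the other pseudocounts, the stricter filter and the 3 scalings, 15 to 21 members were called higher and 0 lower, of which the 15 came from 20 members left by the stricter filter. The numbers pair the libraries only by label: the replicate differences of the genotypes correlated with r = 0.118 over 15058 genes. With the replicate block 23 members were called higher, adding Ccl21a, Cxcl2 and Cxcl5, and no call was lost. Quantile normalization turned the sign of 3 members that had not passed: Ccl28 (-0.17), the Ackr4 row without a position (-0.22) and Cxcr6 (-0.18). Leaving out a library turned the sign of 6 members that had not passed, with ranges of -0.087 to 1.36 for Ccl11, -0.25 to 1.28 for Ccl19, -0.95 to 3.31 for Cxcl10, -0.040 to 0.26 for that Ackr4 row, -0.67 to 0.070 for Ccr10 and -0.29 to 0.40 for Cxcr6 (-0.063 without wild-type replicate 2). The cause was not tested. None of the 20 calls changed sign in any setting. Counts below about 10 limit what can be said of the 18 members under the filter.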
